A study of Mus musculus with 103 samples.

Results

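Epidermal ectoderm of the mouse embryo was compared with tissue of the mandibular and maxillary arches at embryonic day 9.5 (E9.5). The labels do not say which region the ectoderm covered. The comparison took the 7 samples labelled E9.5 epidermal ectoderm, the 5 samples of the E9.5 mandibular arch numbered 2 to 6 and the 5 samples of the E9.5 maxillary arch, which is 17 of the 103 samples of the series. Samples were assigned by their titles, and the 2 arches were given equal weight. A further E9.5 sample, whose labels name both ectoderm and mandibular arch, was not used in it.

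The series is an atlas of the tissues that build the face, in 22 groups from E8.5, E9.5 and E10.5. All embryos came from CD1 outbred mice with no genetic change or treatment, and the day of the vaginal plug was counted as E0.5. Tissue was cut from frozen sections by laser capture microdissection, in which a laser isolates chosen cells under the microscope, and its RNA was amplified and read on Affymetrix Mouse ST arrays. The labels do not tie samples to embryos, so samples of a group, or of ectoderm and arch, may share an embryo, and p-values then measure only the spread between these samples, which may be technical.

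The pharyngeal arches are outgrowths in which an epithelial sheet covers a core of mesenchyme that comes mostly from the neural crest, with mesoderm, vessels and future muscle inside. Epithelial cells are held together by cadherins, claudins and keratin filaments, whereas mesenchymal cells lie apart in a collagen matrix. The ectoderm is known as a source of the growth factors FGF, BMP, SHH and endothelin, which pattern the homeobox genes of the mesenchyme below.

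Values are log2 of the deposited ratios, which compare samples for 1 gene and give no level between genes. A difference is the ectoderm mean minus the mean of the 2 arch means. Of 19938 genes tested with limma, 7373 were called (37.0%), a call being an adjusted p (Benjamini-Hochberg) under 0.05, of which 2720 were higher in the ectoderm (13.6%) and 4653 were lower (23.3%). Without ectoderm sample 7 the count was 4161. After quantile normalization the split turned to 3376 higher (16.9%) and 1773 lower (8.89%). At 2-fold or more, 117 called genes were higher (0.587%) and 2817 lower (14.1%).

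The shape of the arrays' distributions moved with the groups. The 95th percentile of the log2 ratios lay between 0.53 and 0.95 in the ectoderm, between 1.03 and 2.02 in 8 of the 10 arch samples, and at 0.57 and 0.68 in maxillary samples 4 and 5. Maxillary samples 4 and 5 also stood with the ectoderm over the whole array. Across the 19938 genes, which are not independent, their log2 ratios had a median correlation of 0.25 with the ectoderm samples (14 pairs) and -0.07 with the other 8 arch samples (16 pairs), against 0.66 among those 8 (28 pairs) and 0.29 within the ectoderm (21 pairs). All samples share the baseline of the ratios. Without both samples, 3604 genes were called higher and 6162 lower, and with them as the only reference 9 and 36. Without both, each of the 94 genes described kept its direction and its side of the threshold. This setting drops the arch samples that stood nearest the ectoderm, so it is no test of those calls. With the 2 samples as the only reference, 75 of the 94 genes lost their call and 4 turned in direction. Ectoderm sample 7 had the widest spread of the 17 (SD 1.35, against 0.47 to 0.80 in the other 6). With each array's 95th percentile as a covariate, 116 genes were called higher (0.582%) and 197 lower (0.988%), and 101 and 194 of these were also called without it. The covariate and the groups move together, so this fit also takes out difference that they share. Its calls are given beside the gene groups, as the count with the covariate. In tissue samples such as these, fewer cells of a type and less RNA per cell cannot be told apart.

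The marker genes mostly stood on the side that the labels give. Of the 6 ectoderm markers, Epcam, Cldn6, Krt8 and Krt18 were higher in the ectoderm by 2.35 to 3.94 (log2). Cdh1, the cadherin of epithelia, was 0.36 ± 0.08 (SE) higher (limma, adjusted p = 0.00063). Trp63, the p53 relative that marks stratifying epidermis, was 0.32 ± 0.09 (SE) higher (adjusted p = 0.0056), and neither gene was called with the covariate (adjusted p = 0.14 and 0.55). Of the 5 arch markers, Barx1, Twist1, Prrx1 and Pdgfra were lower in the ectoderm, with differences of -4.43 to -1.31. Lhx6, a LIM homeobox gene of the arch mesenchyme, had a mean of 0.54 in the ectoderm and 0.32 in the arches and was not called (adjusted p = 0.38).

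Epithelial adhesion genes were higher in the ectoderm. Of 19 measured genes of epithelial adhesion and the tight junction, 14 were called higher and 1 lower (Tjp1, at -0.25), with a median difference of 0.81 against -0.05 over all genes tested. With the covariate 10 were called higher and 0 lower. Cldn7, a claudin of the tight-junction strands, read at least 3.73 in the ectoderm (median 5.07, highest 5.70). Its arch values were 1.35, -0.11, -0.35, -0.87 and 2.54 in the mandibular and -0.62, 2.40, 2.24, 1.10 and -0.18 in the maxillary samples. Every ectoderm sample lay above every arch sample, and the difference was 4.11 ± 0.68 (SE), or 17.3-fold (adjusted p = 1.0e-05). The arch samples themselves split, with mandibular 6 and maxillary 2 and 3 the highest of the 10.

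Epcam, the epithelial cell adhesion molecule, ran from 2.14 to 3.98 in the ectoderm (median 3.74). It was 0.53, -1.01, -1.41, -0.85 and 0.84 in the mandibular samples and -0.90, 0.52, 0.21, -1.13 and -1.23 in the maxillary samples. The groups did not overlap, and the ectoderm was 3.94 ± 0.56 (SE) higher (15.3-fold, adjusted p = 3.2e-07). Cldn3 ran from 1.29 to 3.86 in the ectoderm (median 2.79) and from -0.95 to 0.11 in the 10 arch samples, again without overlap (9.80-fold, adjusted p = 3.2e-09). Genes without such overlap were rare on the array, with 43 higher (0.216%) and 145 lower (0.727%) in the ectoderm. Among them were 5 of the 19 adhesion genes.

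Cldn6, a claudin of embryonic epithelia, was 3.98 to 4.38 in 6 ectoderm samples and 0.93 in ectoderm sample 7. Maxillary samples 2, 3 and 4 (2.74, 1.59 and 1.34) and mandibular sample 6 (1.79) lay above that last value, so the groups overlapped. The difference was 3.07 ± 0.60 (SE), 8.41-fold (adjusted p = 0.00011), and 3.54 without sample 7. Cldn4 and Cldn9, named after their values were seen, were higher by 2.17 ± 0.44 and 2.57 ± 0.46 (SE). Cldn9 reached 4.21 in the ectoderm but stood at 0.32 and 0.15 in samples 1 and 7. Spint2, which inhibits serine proteases of the epithelial surface, was 1.52 to 1.72 in ectoderm samples 1 to 6, 0.15 in sample 7 and at most -0.42 in the arches (7.63-fold, adjusted p = 1.8e-06).

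Promoter sequence was set beside these values because several of the genes rose together. In the RefSeq windows of GRCm38.p6, which hold 250 bases before a gene's start and 50 bases from it, the 6-base word CACCTG was searched on both strands. It is background that SNAI and ZEB proteins bind this word and act as repressors of epithelial genes. It occurred in 20% of 27025 genes with a window, in 9 of 13 windows of the adhesion list (69.2%) and in 0 of 12 windows of the mesenchymal transcription factor list. Both lists were chosen with earlier results of these data known. Of the 21 adhesion genes, 13 have a window, and Cdh1 and Cldn9 have none. Among genes tested it occurred in 19.2%, in 39.1% of 87 called genes that were 2-fold or more higher in the ectoderm, and in 12.5% of 2319 that were 2-fold or more lower. The 87 and the 2319 were picked by the calls of these same data. The word AACNNGTT, searched in the same windows, occurred in 4.19% of all genes, in 6.90% of the 87 and in 3.75% of the 2319. It occurred in 1 of 13 windows of the adhesion list (7.69%) and in 0 of 12 of the mesenchymal list. This word is rarer than CACCTG, so it is no matched control. The 200 bases before the start are printed 5′ to 3′ for 6 ectoderm genes whose windows hold CACCTG, in capitals where the word or its complement CAGGTG occurs, and for 2 arch genes whose windows do not. They are Epcam (chr17:87635779-87635978, plus strand), Cldn4 (chr5:134946935-134947134, minus strand), Cldn6 (chr17:23679165-23679364, plus strand), Rab25 (chr3:88548280-88548479, minus strand), Spint2 (chr7:29281978-29282177, minus strand), Ap1m2 (chr9:21312334-21312533, minus strand), Barx1 (chr13:48662836-48663035, plus strand) and Prrx1 (chr1:163313651-163313850, minus strand).
Epcam: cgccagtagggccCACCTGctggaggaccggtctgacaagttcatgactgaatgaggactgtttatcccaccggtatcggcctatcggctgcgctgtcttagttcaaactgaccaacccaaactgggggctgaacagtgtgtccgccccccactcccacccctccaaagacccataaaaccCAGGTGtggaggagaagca
Cldn4: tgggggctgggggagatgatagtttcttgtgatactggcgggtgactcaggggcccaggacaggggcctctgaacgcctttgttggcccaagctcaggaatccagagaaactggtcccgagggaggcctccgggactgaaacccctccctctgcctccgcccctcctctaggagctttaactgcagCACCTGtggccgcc
Cldn6: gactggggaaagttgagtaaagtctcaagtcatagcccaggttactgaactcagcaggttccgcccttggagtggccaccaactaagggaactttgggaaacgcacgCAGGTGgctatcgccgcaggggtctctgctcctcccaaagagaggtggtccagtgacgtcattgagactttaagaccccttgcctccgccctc
Rab25: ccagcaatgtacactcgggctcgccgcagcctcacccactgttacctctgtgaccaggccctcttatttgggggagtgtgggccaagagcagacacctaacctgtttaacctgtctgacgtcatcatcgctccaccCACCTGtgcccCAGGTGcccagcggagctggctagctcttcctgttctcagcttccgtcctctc
Spint2: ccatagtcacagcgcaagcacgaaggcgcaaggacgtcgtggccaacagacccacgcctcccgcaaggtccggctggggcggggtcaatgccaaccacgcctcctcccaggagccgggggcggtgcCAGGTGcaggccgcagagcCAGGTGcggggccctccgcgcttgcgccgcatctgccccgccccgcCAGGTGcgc
Ap1m2: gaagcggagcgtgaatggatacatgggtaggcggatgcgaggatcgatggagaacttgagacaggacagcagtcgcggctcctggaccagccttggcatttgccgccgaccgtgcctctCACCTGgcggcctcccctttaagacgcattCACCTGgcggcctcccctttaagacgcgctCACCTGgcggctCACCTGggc
Barx1: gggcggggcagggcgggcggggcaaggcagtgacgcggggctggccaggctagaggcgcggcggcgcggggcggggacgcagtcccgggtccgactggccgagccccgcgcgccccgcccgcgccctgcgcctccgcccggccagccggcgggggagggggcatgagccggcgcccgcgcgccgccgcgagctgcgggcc
Prrx1: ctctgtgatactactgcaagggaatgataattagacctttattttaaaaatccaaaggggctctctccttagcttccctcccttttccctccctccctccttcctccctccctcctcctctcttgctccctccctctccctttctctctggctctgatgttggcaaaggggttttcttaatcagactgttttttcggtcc

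The printed stretches hold the word 2 times for Epcam and Rab25, 3 times for Spint2, 4 times for Ap1m2 and 1 time for Cldn4 and Cldn6. A match is a description of these letters, and binding was not measured. A part of SNAI or ZEB factors in the differences was not tested. Of the factors named, Snai1 fell by 2.33 ± 0.34 and Snai2 by 2.62 ± 0.42 (SE) in the ectoderm. Zeb1 and Zeb2, named after their values were seen, differed by -0.13 ± 0.11 and -0.20 ± 0.10 (SE) and were not called (adjusted p = 0.35 and 0.11).

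**Figure D1:**
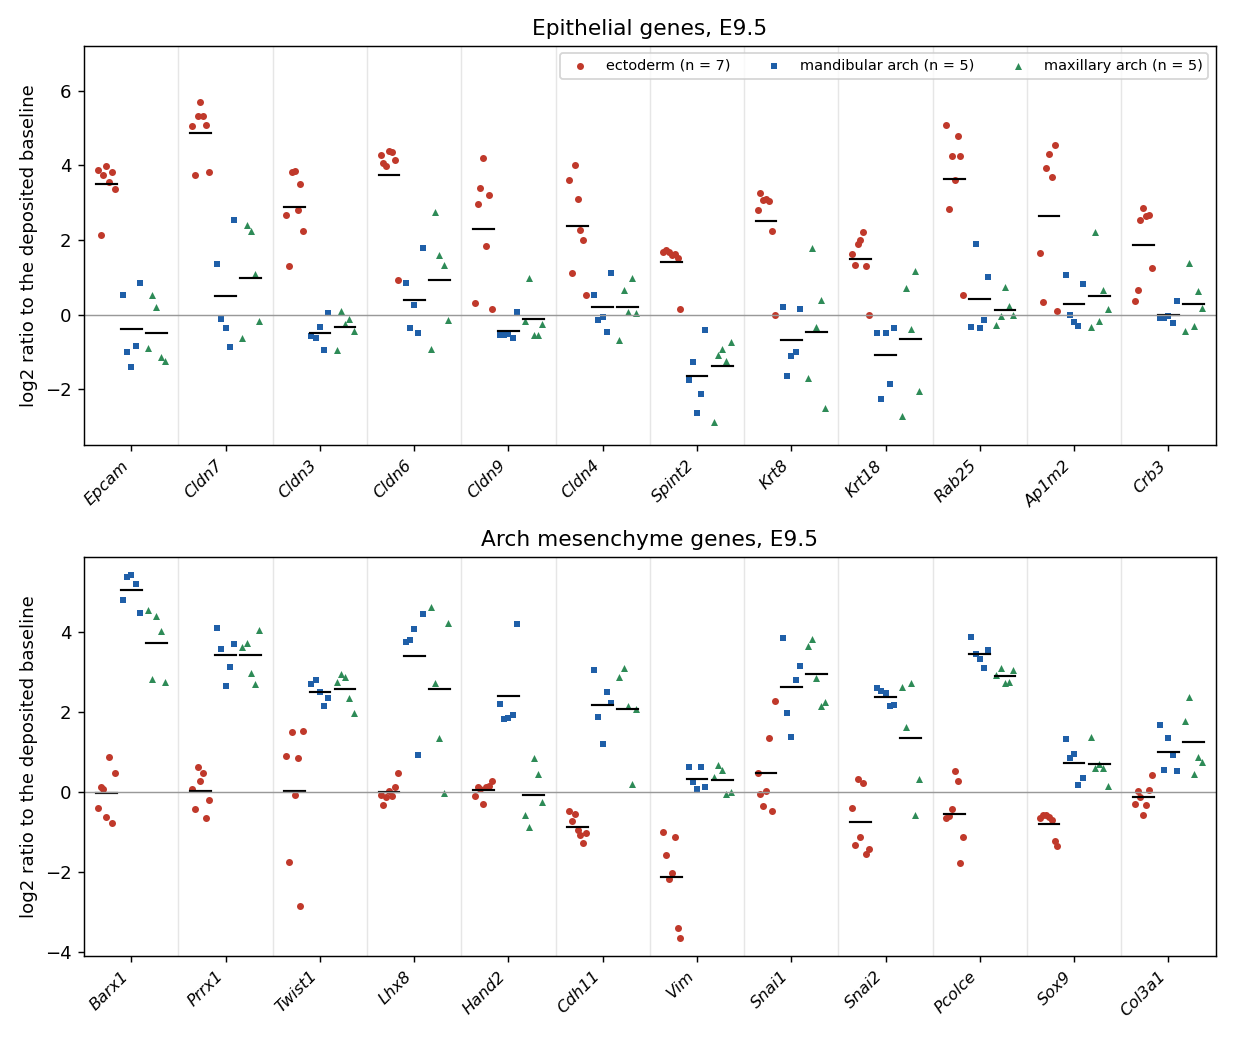
Log2 ratios of 12 epithelial genes (upper plot) and 12 arch genes (lower plot) in each E9.5 sample, with ectoderm as circles (n = 7), mandibular arch as squares (n = 5), maxillary arch as triangles (n = 5) and group means as bars. Epcam, Cldn7, Cldn3 and Spint2 do not overlap between ectoderm and arches, whereas ectoderm sample 7 lies near the arches for Cldn6, Krt8 and Rab25.

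Keratin, polarity and trafficking genes of epithelia were higher in part. Of 18 desmosome and keratin genes, 7 were called higher and 1 lower (4 and 0 with the covariate). Krt8, which pairs with Krt18 in the filaments of simple epithelia, was 2.23 to 3.26 in 6 ectoderm samples and 0.00 in sample 7, and ran from -2.49 to 1.78 in the arches. Krt8 was 3.07 ± 0.61 (SE) higher (adjusted p = 0.00016) and Krt18 2.35 ± 0.61 (adjusted p = 0.0025), with overlap only through sample 7. Pkp3, a desmosomal plakophilin, was above all arch samples (0.88 ± 0.15 SE). The 1 gene called lower was Jup, the plakoglobin shared by desmosomes and adherens junctions, which fell by 1.05 ± 0.28 (SE). It was not called with the covariate (adjusted p = 0.48), and its adjusted p was 0.18 once arrays were quantile-normalized.

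Of 14 polarity and trafficking genes, 6 were called higher and 0 lower, and 4 with the covariate. Rab25, a small GTPase of epithelial recycling endosomes, was 2.84 to 5.07 in ectoderm samples 1 to 6 and 0.53 in sample 7. It was -0.33, 1.88, -0.35, -0.14 and 1.00 in the mandibular and -0.28, -0.05, 0.73, 0.22 and 0.00 in the maxillary samples. Sample 7 fell among the arches, and the difference was 3.36 ± 0.60 (SE), 10.3-fold (adjusted p = 3.1e-05). Ap1m2, a subunit of the adaptor that sorts proteins to the basolateral membrane, differed by 2.26 ± 0.60 (SE, adjusted p = 0.0029). Its ectoderm samples split, with 3.70 to 4.55 in samples 3 to 6, 1.65 in sample 1, and 0.35 and 0.09 in samples 2 and 7. Crb3, of the apical Crumbs complex, was 1.72 ± 0.36 (SE) higher, and Llgl2, of the basolateral side, 0.84 ± 0.18 higher.

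Transcription and splicing regulators of epithelia moved less. Of 15 measured, 8 were called higher and 0 lower, with a median of 0.32, and 0 were called with the covariate. The highest was Klf5, a Krüppel-like factor of epithelia, at 1.14 ± 0.27 (SE, adjusted p = 0.001), followed by Ovol2, a zinc finger factor, at 0.95 ± 0.22. Ovol2 stood at 2.84 in ectoderm sample 5 and at 0.11 to 1.16 in the other 6. Esrp2, which sets epithelial splice forms, was 0.43 ± 0.13 (SE) higher. Of 23 genes of the basement membrane and its receptors, 9 were called higher and 2 lower (2 and 1 with the covariate), with a median of 0.15. Lama5, a laminin chain, was above all arch samples at 0.46 ± 0.08 (SE, adjusted p = 1.1e-05), and Nid2, a nidogen, fell by 1.05 ± 0.18. The lower count of 2 became 1 without any 1 of ectoderm samples 4 and 7, mandibular sample 2 and maxillary sample 1.

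Regional genes of the oral ectoderm, the placodes and the anterior neural plate were higher in the ectoderm, and the 7 ectoderm samples differed among themselves in them. Of 12 measured placode and oral ectoderm genes, 9 were called higher and 0 lower (4 and 0 with the covariate), with a median of 0.85. Without maxillary samples 4 and 5, 1 was called lower. Pitx1, a homeobox gene of the oral ectoderm and the mandibular arch, was 4.94 to 5.35 in 6 ectoderm samples and 3.25 in sample 6. In the mandibular samples it was 2.33, 4.95, 4.58, 0.83 and 3.96, and in the maxillary samples -0.82, -0.64, 0.47, 0.15 and 0.09. Thus 3 of the 5 mandibular samples reached the ectoderm's range, and 0 of the 5 maxillary samples did. The difference was 3.25 ± 0.54 (SE, adjusted p = 8.8e-06).

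Aldh1a3, an enzyme that makes retinoic acid, was 4.07 to 5.22 in ectoderm samples 1 to 5, 1.04 in sample 6 and 0.83 in sample 7, and -0.27 to 0.42 in all arch samples. The groups did not overlap, and the difference was 3.59 ± 0.31 (SE), 12-fold (adjusted p = 7.7e-15). Isl1, a LIM homeobox gene of the oral and distal arch epithelium, was 4.05 to 4.71 in samples 1 to 5 but -0.42 and -0.54 in samples 6 and 7. These last 2 values were below all 10 arch samples (0.30 to 2.23), and the difference of 1.85 ± 0.59 (SE, adjusted p = 0.011) was not called with the covariate (adjusted p = 0.088). Bmp4, a secreted BMP ligand, split in the same way, with 3.75 to 4.42 in samples 1 to 5, 0.82 in sample 6 and -0.95 in sample 7. It was 2.50 ± 0.63 (SE) higher (adjusted p = 0.002, and 0.082 with the covariate). Sostdc1, a secreted antagonist of BMP and WNT, was -0.35 in both samples 6 and 7 and between 0.25 and 4.13 in the other 5.

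The parts of the surface from which each ectoderm sample was cut are not given in the labels. Pax6, a paired homeobox gene of the lens and nasal placodes and the forebrain, ran from 0.16 (sample 7) to 4.29 (sample 1) with a median of 2.31, and its highest arch value was 0.02 (2.52 ± 0.51 SE, adjusted p = 0.00022). Six3, of the anterior neural plate and placodes, was 1.32 to 3.00 in all ectoderm samples and -1.22 to -0.30 in the arches (5.80-fold, adjusted p = 3.2e-08). Sox2, a factor of neural and placodal progenitors, was -0.51 to 1.67 in samples 1 to 6, -3.13 in sample 7 and -3.89 to -0.95 in the arches. Eya2, a placodal cofactor, reached 2.77 in sample 6 and 0.26 to 1.35 in the others. Sample 6, low in Isl1 and Bmp4, was thus the highest of the 7 in Eya2 and also in Otx2 (2.40).

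Genes that also mark neural epithelium moved with these. Of 13 measured, 7 were called higher and 1 lower (5 and 0 with the covariate). The per-sample mean of the list ran from -0.09 to 0.64 in the ectoderm and from -0.74 to -0.09 in the arches. Both lists hold Pax6 and Sox2. Otx2, a homeobox gene of the forebrain and anterior ectoderm, was 1.66 ± 0.42 (SE) higher, and its mean of 1.29 in the ectoderm compared with 3.42 ± 0.31 (SD, n = 5) in the E9.5 neuroepithelium. The 1 gene lower was Fabp7, a fatty acid binding protein of neural progenitors, at -2.51 to -2.09 in the ectoderm and 3.52 on average in the neuroepithelium. Of 11 neuron genes, 2 were called higher and 0 lower, and 0 with the covariate. The neuron counts lay within a few genes of the shares of all genes called, so they are no result about that list. The 2 became 1 without any 1 of ectoderm samples 2, 4, 6 and 7, mandibular sample 2 and maxillary samples 1 and 3. The part of neural tissue in the ectoderm result was not tested.

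**Figure D2:**
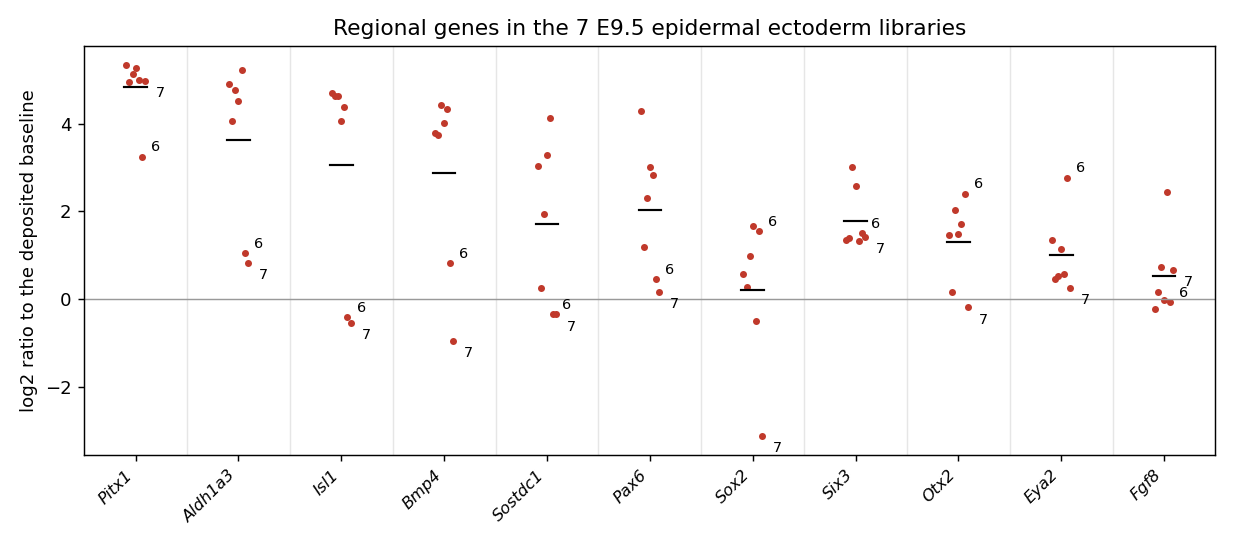
Log2 ratios of 11 regional genes in the 7 E9.5 epidermal ectoderm samples, with the group mean as a bar and samples 6 and 7 numbered. In Aldh1a3, Isl1 and Bmp4, samples 1 to 5 lie together and samples 6 and 7 lie lower.

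Signalling lists are set beside the shares of all genes called, 13.6% higher and 23.3% lower. The FGF, hedgehog, BMP, Notch and retinoic acid counts lay within a few genes of what these shares give, so they are no result about those lists. In the FGF list 3 of 19 genes were called higher and 4 lower, and 0 with the covariate in either direction. Fgf8, the ligand of the arch ectoderm, was 2.43 in ectoderm sample 5 and -0.24 to 0.73 in the other 6, against -1.02 to -0.03 in the arches. Its difference of 1.08 ± 0.38 (SE, adjusted p = 0.02) was 0.76 without sample 5 and then not called (adjusted p = 0.10). Dusp6, a phosphatase gene induced by FGF signalling, fell by 1.87 ± 0.37 (SE, adjusted p = 0.00013). Without ectoderm sample 7 the higher count fell from 3 to 1.

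In the hedgehog list 4 of 11 were called higher and 2 lower (0 and 0 with the covariate). Shh, the ligand, was higher by 0.64 ± 0.17 (SE, adjusted p = 0.0024). Smo, the transducer, fell by 1.26 ± 0.44 (SE, adjusted p = 0.02), but its difference was 0.08 with the covariate. Its call was lost without ectoderm sample 7 (-1.11, adjusted p = 0.07), mandibular sample 2 (-1.08, 0.055) or mandibular sample 5 (-1.05, 0.055). The hedgehog count lower fell to 0 without mandibular sample 2 and to 1 without any 1 of ectoderm samples 1, 2, 5, 6 and 7, mandibular samples 3 and 5 and maxillary samples 1 and 2. In the BMP list 4 of 18 were called higher and 2 lower, again 0 with the covariate. Bambi, a pseudoreceptor that dampens BMP signalling, fell by 1.32 ± 0.35 (SE, adjusted p = 0.0029). The count higher fell to 2 without any 1 of ectoderm samples 2, 3, 5 and 7, mandibular sample 5 and maxillary samples 1, 2 and 3, and the count lower to 1 without any 1 of ectoderm samples 2, 5 and 7, mandibular sample 5 and maxillary sample 4, and without both maxillary samples 4 and 5.

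In the WNT list 11 of 27 genes were called higher and 2 lower, with a median of 0.30. Of the 11, 10 were WNT ligands, of which Wnt6 had the largest difference (0.98). The 11 became 4 without ectoderm sample 7, and with the covariate 1 was called higher, which was Wnt5b, a secreted WNT ligand (0.74 ± 0.16 SE, adjusted p = 0.00031). The count lower was 1 without any 1 of ectoderm samples 6 and 7, mandibular sample 2 and maxillary sample 1. In the Notch list 3 of 11 were called higher and 0 lower, with Hes1, a target of the pathway, at 0.79 ± 0.15 (SE), and 0 were called with the covariate. Without ectoderm sample 4 or 5, or without both maxillary samples 4 and 5, 1 Notch gene was called lower. In the retinoic acid list 2 of 14 were called higher, with Aldh1a3 far above the rest, and 1 lower, which was Rarg, a receptor (-1.24 ± 0.24 SE). With the covariate 1 was called higher and 0 lower, and Rarg was not called (adjusted p = 0.12). The higher count fell to 1 without ectoderm sample 7.

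Ligands of the PDGF family and their receptor stood on opposite sides. Pdgfa was 0.47 to 2.93 in the ectoderm (median 2.37) and -1.92 to 1.17 in the arches, a difference of 1.82 ± 0.40 (SE, adjusted p = 0.00049). Pdgfc was higher by 1.24 ± 0.40 (adjusted p = 0.013). Their receptor Pdgfra, which marks mesenchyme, was 2.63, 0.51, 0.56, 1.82 and 1.78 in the mandibular and 1.74, 1.96, 1.08, -0.02 and 0.04 in the maxillary samples, and -0.37 to 0.51 in the ectoderm. Maxillary samples 4 and 5 and mandibular sample 3 lay within the ectoderm's range, and Pdgfra fell by 1.31 ± 0.23 (SE, adjusted p = 2.3e-05). All 3 calls were kept with the covariate. Over 19 ligand and receptor genes, 6 were called higher and 4 lower (3 and 1 with the covariate). The counts without the covariate lay within a few genes of the shares of all genes called (13.6% higher, 23.3% lower). They are thus no result about the list. Cxcr4, a chemokine receptor, was among the 6 called higher (1.39 ± 0.26 SE).

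**Figure D3:**
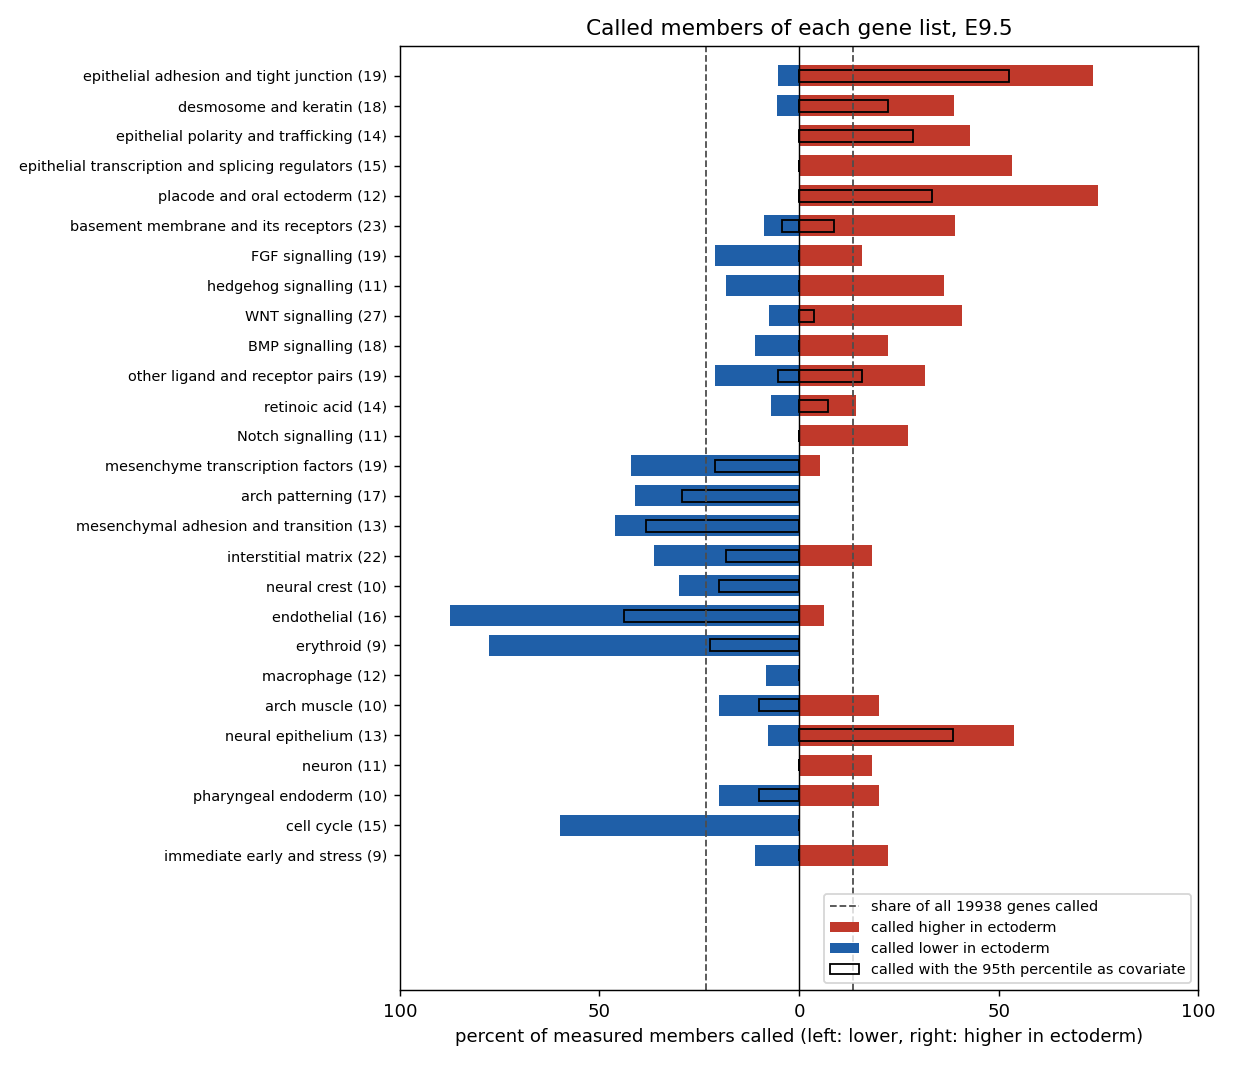
Percent of the measured members of each gene list (number in brackets) that were called higher (right) or lower (left) in the E9.5 ectoderm, with black outlines for calls made with the 95th percentile as covariate and dashed lines for the share of all genes called, 13.6% higher and 23.3% lower. Adhesion genes reach furthest among the epithelial lists with the covariate, and no gene of the FGF, hedgehog, BMP, Notch or cell cycle lists is called with it.

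Transcription factors of the arch mesenchyme were lower in the ectoderm. Of 19 measured, 8 were called lower, all by 2-fold or more, and 1 higher (4 and 0 with the covariate). The median was -0.81. Over all genes, 23.3% were called lower, and 14.1% were lower by 2-fold or more. The 1 higher call was lost without ectoderm sample 7 or mandibular sample 2. Prrx1, a paired-related homeobox gene of limb and face mesenchyme, was 4.12, 3.59, 2.65, 3.14 and 3.71 in the mandibular and 3.64, 3.73, 2.98, 2.70 and 4.07 in the maxillary samples. In the ectoderm it ran from -0.65 to 0.63 (median 0.08). The groups lay far apart, and the gene fell by 3.40 ± 0.39 (SE), 10.6-fold (adjusted p = 5.7e-10). Prrx2 fell by 2.22 ± 0.41 without overlap.

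Twist1, a bHLH factor of cranial mesenchyme, was 1.98 to 2.95 in all 10 arch samples. In the ectoderm it was spread widely, at 0.90, 0.86, 1.51 and 1.53 in samples 1, 5, 3 and 7, -0.06 in sample 4, and -1.74 and -2.84 in samples 2 and 6. No ectoderm sample reached the arches, and Twist1 fell by 2.52 ± 0.49 (SE, adjusted p = 0.00012). Twist2 stood at 2.50 in ectoderm sample 2 and at -1.02 to 0.30 in the other 6, so 1 ectoderm sample lay within the arch range (0.55 to 3.16). Its difference was -2.31 ± 0.44 (SE, adjusted p = 8.2e-05).

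Genes that pattern the arches showed the 2 arches as well as the ectoderm. Of 17 measured, 7 were called lower and 0 higher in the ectoderm (5 and 0 with the covariate). Over all genes the shares were 23.3% lower and 13.6% higher. Barx1, a homeobox gene of the arch mesenchyme where teeth will form, was 4.81, 5.39, 5.44, 5.22 and 4.49 in the mandibular and 4.56, 2.84, 4.42, 4.04 and 2.76 in the maxillary samples. In the ectoderm it ran from -0.77 to 0.87 (median 0.09). It fell by 4.43 ± 0.37 (SE), 21.5-fold (adjusted p = 1.9e-15), and all 7 ectoderm samples lay below every arch sample. Barx1 averaged -0.44 ± 0.42 (SD, n = 6) in the E9.5 cranial mesenchyme, while Prrx1 averaged 2.25 ± 1.12 there.

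Hand2, a bHLH factor of the distal mandibular arch, was 2.22, 1.84, 1.85, 1.94 and 4.22 in the mandibular samples and -0.57, -0.87, 0.86, 0.45 and -0.24 in the maxillary samples. The ectoderm ran from -0.29 to 0.27. The difference of -1.11 ± 0.25 (SE, adjusted p = 0.00054) rested on the mandibular arch, and against the maxillary arch alone it was 0.13 (adjusted p = 0.78). Lhx8, another homeobox gene of the mesenchyme near the mouth, was 3.76, 3.81, 4.09, 0.93 and 4.47 in the mandibular and 4.64, 2.73, 1.36, -0.01 and 4.23 in the maxillary samples, against -0.33 to 0.47 in the ectoderm. Maxillary sample 4 was the 1 arch sample within the ectoderm's range, and the difference was -3.0 ± 0.56 (SE, adjusted p = 7.4e-05). Dlx1, of the distal-less family that patterns the arches along their length, fell by 1.5 ± 0.28 (SE, adjusted p = 5.4e-05).

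Some adhesion and matrix genes of mesenchyme were lower in the ectoderm. Of 13 mesenchymal adhesion and transition genes, 6 were called lower and 0 higher (5 and 0 with the covariate). Over all genes the shares were 23.3% lower and 13.6% higher. Cdh11, a cadherin of mesenchyme, was -1.28 to -0.46 in the ectoderm (median -0.95) and 0.20 to 3.11 in the arches, with no overlap (-3.0 ± 0.33 SE, adjusted p = 1.5e-10). Vim, the intermediate filament vimentin, was -3.64 to -1.0 in the ectoderm and -0.04 to 0.68 in the arches (-2.46 ± 0.31 SE, adjusted p = 1.5e-08). Snai1, a zinc finger repressor, reached 2.29 in ectoderm sample 7 and 1.36 in sample 5, and was -0.47 to 0.49 in the other 5.

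Of 22 interstitial matrix genes, 8 were called lower and 4 higher (4 and 0 with the covariate). Over all genes the shares were 23.3% lower and 13.6% higher, and the list's median was -0.04 against -0.05. The counts without the covariate lay within a few genes of these shares, so they are no result about the list. The 4 higher calls became 0 without ectoderm sample 7, and 2 without any 1 of mandibular sample 2 and maxillary samples 1 and 2. They became 7 without maxillary sample 4 or without both 4 and 5. Bgn, the proteoglycan biglycan, fell by 2.24 ± 0.31 (SE, adjusted p = 2.0e-07). It stood at 0.15 and 0.32 in maxillary samples 4 and 5, against 1.16 to 4.07 in the other arch samples. Col3a1 and Col1a2, fibrillar collagen chains, fell by 1.25 ± 0.20 and 1.27 ± 0.21. Postn, a matrix protein of mesenchyme, fell by 1.35 ± 0.42 (SE, adjusted p = 0.01) but was not called with the covariate (adjusted p = 0.67). Pcolce, which enhances procollagen processing and is not on the list, was -1.77 to 0.54 in the ectoderm and 2.73 to 3.89 in the arches (13.2-fold lower, adjusted p = 7.7e-12).

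Of 10 neural crest genes, 3 were called lower and 0 higher (2 and 0 with the covariate). These counts lay within a few genes of the shares of all genes called (13.6% higher, 23.3% lower), so they are no result about the list. A higher call appeared for 1 gene without any 1 of ectoderm samples 3, 4 and 6, mandibular sample 2 and maxillary samples 1 and 2. Sox9, a factor of crest and cartilage precursors, was -1.34 to -0.56 in the ectoderm and 0.16 to 1.39 in the arches, with no overlap (-1.52 ± 0.25 SE, adjusted p = 6.6e-06). Snai2 was 2.15 to 2.61 in the mandibular samples but -0.57 and 0.33 in maxillary samples 4 and 5, where it reached down to the ectoderm (-1.55 to 0.34).

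Vessel and blood genes were lower in the ectoderm as well. Of 16 endothelial genes, 14 were called lower and 1 higher (7 and 0 with the covariate), with a median of -1.15, and the per-sample mean of the list was -0.48 to 0.47 in the ectoderm, 1.07 to 1.53 in the mandibular and 0.45 to 1.65 in the maxillary samples. The 1 higher call was lost without any 1 of ectoderm samples 2 and 7, mandibular samples 2 and 5 and maxillary samples 1, 2 and 3. Eng, a TGF-beta coreceptor of endothelium, was 2.31, 2.07, 1.43, 2.53 and 2.09 in the mandibular and 2.27, 2.67, 2.40, 2.78 and 1.67 in the maxillary samples, and -0.34 to 0.29 in the ectoderm. All 10 arch samples were high (-2.30 ± 0.23 SE, adjusted p = 7.7e-12). Icam2, an adhesion molecule of vessels that is not on the list, fell by 3.10 ± 0.32 (SE, adjusted p = 1.7e-11), also without overlap.

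Emcn, the endothelial sialomucin endomucin, was 3.96 in ectoderm sample 1 and -0.57 to -0.06 in the other 6. It was 4.52 to 5.42 in the mandibular samples, 4.70 to 4.93 in maxillary samples 1 to 3, and 0.78 and 0.31 in maxillary samples 4 and 5. Its difference of -3.69 ± 0.70 (SE, adjusted p = 8.5e-05) was not called with the covariate (adjusted p = 0.052). Cldn5, the claudin of endothelium, was also highest in sample 1 among the ectoderm (1.68), and Ramp2, a subunit of the adrenomedullin receptor, was 0.05 and 0.63 in ectoderm samples 1 and 2 and at most -3.02 in the other 5. Cldn5, Esam, a junction molecule of endothelium, and Ramp2 fell by 3.12 ± 0.43, 2.33 ± 0.30 and 3.72 ± 0.58 (SE).

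Of 9 erythroid genes, 7 were called lower and 0 higher (2 and 0 with the covariate), and 4 lower and 1 higher without maxillary sample 1. Alas2, which starts heme synthesis in red cells, was -0.33 to 0.30 in the ectoderm and reached 4.27 in maxillary sample 1 (-1.90 ± 0.39 SE, adjusted p = 0.00026). Klf1, the erythroid Krüppel-like factor, fell by 1.69 ± 0.37. Hbb-bh1, an embryonic globin whose probes may also read related globins, was -6.07 and -6.25 in ectoderm samples 3 and 7 and -0.84 to 0.44 in the other 5, against -0.46 to 1.00 in the arches. Of 12 macrophage genes, 1 was called lower, Lyz2, the myeloid lysozyme (-0.58 ± 0.19 SE), and not without mandibular sample 4 (adjusted p = 0.051) or maxillary sample 5 (adjusted p = 0.07). The count lower was 2 without maxillary sample 2 or 4, and with the covariate 0 were called in either direction. The macrophage counts lay within a few genes of the shares of all genes called, so they are no result about that list. Vessel and blood genes thus move with the arch group beside the mesenchymal genes, and their part in the other differences was not tested.

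Of 10 arch muscle genes, 2 were called higher and 2 lower (0 and 1 with the covariate). Msc, the bHLH factor musculin of head muscle precursors, fell by 1.39 ± 0.20 (SE, adjusted p = 4.4e-07) and Des, desmin, fell by 1.57 ± 0.31. Both were near the ectoderm in maxillary samples 4 and 5. The 2 higher became 1 without any 1 of ectoderm samples 6 and 7, mandibular sample 2 and maxillary samples 1 and 2. Of 10 pharyngeal endoderm genes, 2 were called higher and 2 lower (0 and 1 with the covariate), and 1 higher without any 1 of ectoderm sample 7, mandibular sample 2 and maxillary samples 1 and 2. It was 4 higher without both maxillary samples 4 and 5. The muscle and endoderm counts lay within a few genes of the shares of all genes called (13.6% higher, 23.3% lower), so they are no result about those lists.

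Cell cycle genes were lower in the ectoderm in the fit of groups alone. Of 15, 9 were called lower and 0 higher, with a median of -0.99, but 5 without ectoderm sample 7 and 0 with the covariate (median -0.27). Ccne1, the cyclin of S-phase entry, was -3.01 to -0.31 in the ectoderm, 0.56 to 2.19 in the mandibular and 1.38 to 1.64 in maxillary samples 1 to 3, and -0.78 and -0.10 in maxillary samples 4 and 5. It fell by 2.42 ± 0.45 (SE, adjusted p = 5.9e-05). Mcm2 and Mcm5, of the replicative helicase, fell by 2.11 ± 0.42 and 1.78 ± 0.37, and Ccna2, a cyclin of S and G2 phase, fell by 1.81 ± 0.47. In maxillary samples 4 and 5 all 4 genes lay between -0.78 and 0.03. Of 9 immediate early and stress genes, 2 were called higher and 1 lower, and 0 with the covariate. Both counts lay within a few genes of the shares of all genes called, so they are no result about that list. The 2 became 0 without any 1 of ectoderm samples 2 and 7 and maxillary samples 1 and 2, and 1 without any 1 of ectoderm samples 5 and 6 and mandibular samples 2 and 6.

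Outside the lists, the largest rises without overlap included Wfdc2, a secreted whey acidic protein of epithelia, at 2.53 ± 0.44 (SE, adjusted p = 1.8e-05). Prss22, a serine protease of epithelia, was 2.77 and 3.65 in ectoderm samples 1 and 2 and 0.23 to 0.88 in the other 5 (1.46 ± 0.25 SE). Bspry, a B-box protein, Khdrbs3, an RNA-binding protein, and Dmrta2, a transcription factor of the anterior neural plate, were higher by 1.58, 1.35 and 1.23. The largest falls included Gap43, a growth protein of axons, at -3.39 ± 0.64 (SE), with 1.81 in ectoderm sample 1 and -2.80 to -0.15 in the other 6, against 1.86 to 2.59 in the arches. Vasn, a membrane protein that binds TGF-beta, and Sparcl1, a matrix protein related to SPARC, fell by 3.04 ± 0.46 and 3.06 ± 0.48. Kat8, a histone acetyltransferase, fell by 3.42 ± 0.59 and was called with the covariate (adjusted p = 0.0099). Cnn2, an actin-binding calponin (-3.5 ± 0.73), Zfand1, a zinc finger protein (-3.15 ± 0.72), and Atp23, a mitochondrial protease (-3.11 ± 0.61), were not called with it (adjusted p = 0.19, 0.33 and 0.059).

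**Figure D4:**
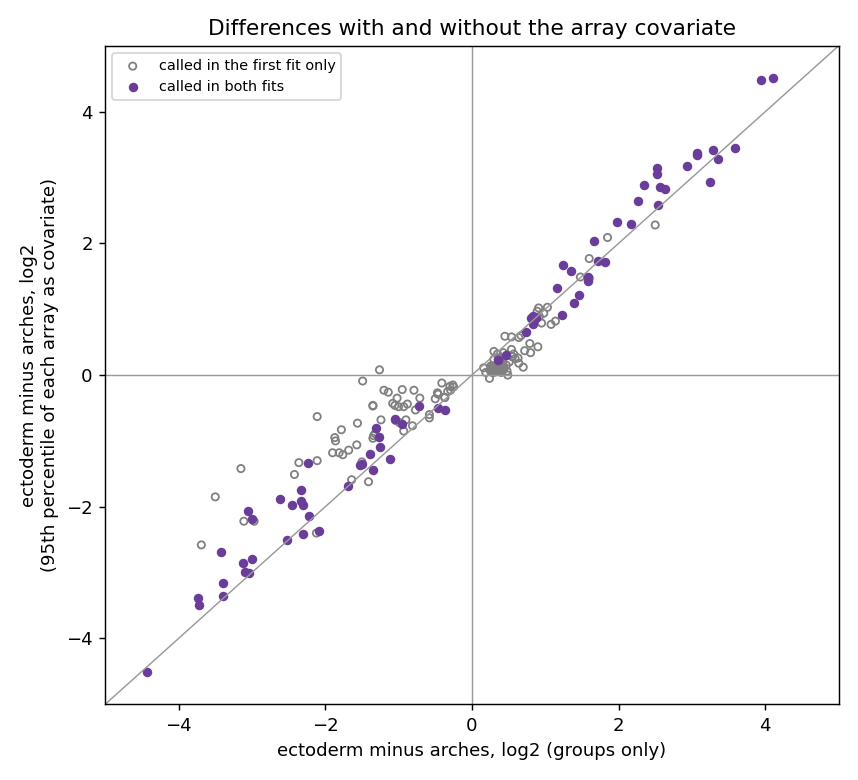
Ectoderm minus arches at E9.5 (log2) without (x axis) and with (y axis) the 95th percentile of each array as covariate, for the 203 list and named genes called without it, with filled points for the 72 called in both fits. Epcam and Cldn7 at the upper right lie above the line of equality, while many of the genes that were lower move towards 0 and lose their call.

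A related contrast was measured at E10.5 in other samples, 4 of the maxillary arch epidermal ectoderm and 5 of the maxillary arch. The E10.5 labels tie the ectoderm to the maxillary arch, whereas the E9.5 ectoderm labels name no region. Of all genes tested, 2 were called there (0.01%), 1 higher in the ectoderm (0.00502%), Sytl4 at 0.66, and 1 lower (0.00502%), Gemin2 at -2.67, both named because there are so few. Leaving out any 1 of the 9 samples gave 7 (without maxillary arch sample 2 or 3) to 35 calls (without maxillary arch sample 5). Epcam was 4.12, 3.10, 3.08 and 3.46 in the E10.5 ectoderm, and 2.80, 2.40, 3.59, 2.67 and -1.44 in the samples labelled E10.5 maxillary arch. Thus 4 of these 5 lay near the ectoderm, and the difference was 1.43 ± 0.76 (SE, adjusted p = 0.71).

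Cldn7 was 4.37, 4.41, 5.78, 1.05 and 0.42 in the same E10.5 arch samples and 3.78 to 5.57 in the E10.5 ectoderm. Over the adhesion list, the per-sample mean was -0.23 to 1.62 in the E10.5 arch samples and 0.75 to 1.40 in the E10.5 ectoderm, against -0.48 to 0.54 in the E9.5 maxillary arch. Prrx1 was 2.56, 2.43, 0.44, 2.32 and 2.10 in the same arch samples, against -0.26 to 0.45 in the E10.5 ectoderm (-1.99 ± 0.53 SE, adjusted p = 0.15). Arch sample 3 thus lay within the ectoderm's range. Barx1 was 3.89, 1.80, 3.04, -0.13 and 1.14 in the arch samples and -0.05 to 2.28 in the E10.5 ectoderm. Pdgfra was 0.59, -0.26, -0.31, 0.40 and 0.42 in the arch samples and -0.35 to 0.13 in the E10.5 ectoderm. Epithelial markers move with the arch label at E10.5, and their part in the low count was not tested.

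The difference between ectoderm and maxillary arch itself changed between the stages for 42 genes (0.211%), 30 of them in the positive direction (0.15%) and 12 in the negative (0.0602%). The count ran from 7 (without E9.5 maxillary arch sample 1 or 2) to 131 (without E9.5 maxillary arch sample 4) with 1 sample left out. It was 26 without E9.5 ectoderm sample 7, 16 without E9.5 maxillary arch sample 3 and 94 without sample 5. It was 27 and 22 without E10.5 maxillary arch sample 2 or 4, and 75 and 10 without E10.5 ectoderm sample 2 or 4. Pitx1 went from 4.99 at E9.5 to -0.92 at E10.5, a change of -5.91 ± 0.97 (SE, adjusted p = 0.00037). Rab25 changed by -4.75 ± 1.08, Aldh1a3 by -3.38 ± 0.56, Cldn3 by -3.01 ± 0.72 and Six3 by -2.44 ± 0.59. Aldh1a3 and Six3 were at -0.54 to 0.52 in all 4 samples of the E10.5 ectoderm, so these 2 were low in the ectoderm itself. Pitx1 was 3.55, 0.86, 1.31 and -0.35 in the E10.5 ectoderm and 4.12, 1.65, 4.65, 0.13 and 0.74 in the E10.5 maxillary arch. Rab25 was 1.38, 4.22, 1.11 and 0.02 in that ectoderm and 4.07, 4.38, 4.51, 1.59 and 0.07 in that arch. Stage and region of the ectoderm cannot be told apart in any of these changes, since only the E10.5 ectoderm labels name a region.

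In the other direction, Pcolce changed by 3.97 ± 0.68 (SE, adjusted p = 0.00059), with 2.68 and 2.96 in 2 E10.5 ectoderm samples and 0.00 and -0.07 in the other 2. The endothelial genes Eng, Icam2 and Esam changed by 2.51 ± 0.42, 2.84 ± 0.58 and 2.49 ± 0.55 (SE). Eng was -0.62 to 0.24 in the E10.5 maxillary arch, against 1.67 to 2.78 at E9.5. Dusp6 (2.91 ± 0.66), Sox9 (1.85 ± 0.45) and Col3a1 (1.71 ± 0.36) changed in the same direction. For Epcam, Cldn6, Cldn7 and Barx1 the change between stages was not called (adjusted p = 0.29, 0.39, 0.42 and 0.055).

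**Figure D5:**
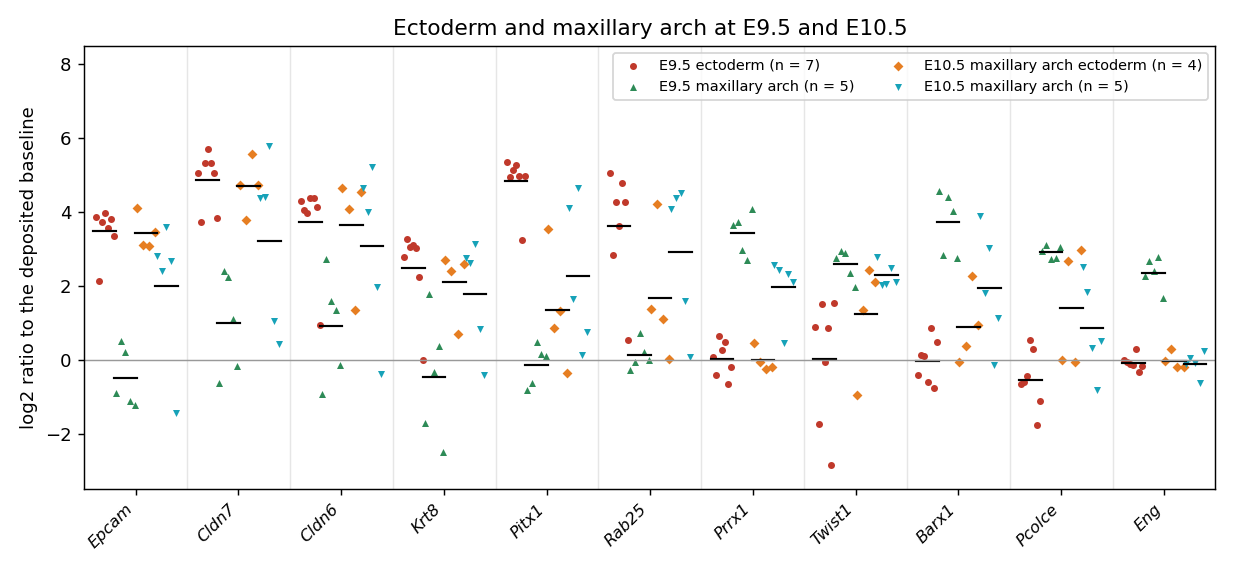
Log2 ratios of 11 genes in the E9.5 ectoderm (circles, n = 7), the E9.5 maxillary arch (upward triangles, n = 5), the E10.5 maxillary arch epidermal ectoderm (diamonds, n = 4) and the E10.5 maxillary arch (downward triangles, n = 5), with group means as bars. Epcam separates the groups at E9.5, whereas 4 of 5 samples of the E10.5 maxillary arch lie between 2.40 and 3.59, near the E10.5 ectoderm.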

How the data were processed

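The authors deposited 1 table of linear ratios for all samples, made with RMA and annotated on mm9, per the submitters' processing notes. Each row's median over 21 samples is 1, and these include 2 ectoderm and 2 arch samples of the E9.5 comparison, so a ratio is relative to that baseline. Array intensities were not used here, so signal over background is unknown, and the number of arrays limits the precision. The table holds 35557 probe sets, of which 6701 have no value. Of the 28856 with values, 21789 have 1 gene symbol, 1621 several and 5446 none. Symbols were matched through Entrez identifiers for 21698 probe sets, of which 0 were renamed, and kept from the annotation for 91. Where a gene had several probe sets (999 genes), the one with the highest mean log2 value was used, which left 19938 genes. No low-value filter or pseudocount was used, and the smallest ratio is 0.01 (62 values).

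Log2 ratios were fitted with limma 3.58.1 in R 4.3.3 over all 22 groups (102 samples), with eBayes and Benjamini-Hochberg adjustment over all genes, and called at an adjusted p under 0.05. SE is the moderated standard error of limma. On simulated data for the E9.5 comparison with 19938 genes, 78% of 2-fold and 95% of 4-fold changes were recovered, and 5.98% of 184 calls were unchanged genes. The simulation changed 200 genes and drew independent noise, with no shift shared by the genes of an array. In the data the shape of the arrays moved with the groups, so these rates do not carry over to the calls made here. Alternatives were array weights, quantile normalization, a trend of the variance, the mean of all probe sets, a fit of the compared groups alone with and without a replicate block, leaving out wide arrays, array percentiles as covariates, either arch alone as reference, and leaving out each sample. The 95th percentile covariate, the reference of 2 arch samples and the fit without these 2 were added after the data were seen. The members, the 27 gene lists (412 genes) and the tests were chosen with earlier results of these data known.

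Named genes were the markers Epcam, Cldn6 and Barx1, in either direction the 12 called genes that differed most among those without overlap, up to 5 called members of each list, and the largest stage differences, passing over predicted genes, olfactory receptors and small RNAs. The rule gave 128 genes, some of which are left out for length. Cldn4, Cldn9, Cdh1, Trp63, Lhx6, Zeb1 and Zeb2 were added, some after their values were seen. Promoter windows came from RefSeq (GRCm38.p6). Tables were read with Python 3.11.15 and pandas 2.3.3, and figures drawn with matplotlib 3.10.9.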

Additional observations from a re-analysis of the deposited data

Results flagged for a closer look

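In 28 of 282 gene and group pairs checked (9.93%), 1 sample stood apart from the rest of its group by Dixon's test, where chance gives about 1 in 20. Of the epithelial genes, ectoderm sample 7 stood apart at 0.93 for Cldn6 (others 3.98 to 4.38), 0.0 for Krt8 (2.23 to 3.26), 0.0 for Krt18 (1.3 to 2.22) and 0.15 for Spint2 (1.52 to 1.72). The same sample stood apart upward at 2.21 for Dmrta2, 1.21 for Lhx6 and 0.51 for Pdgfra. Ectoderm sample 5 was high at 2.43 for Fgf8, 2.84 for Ovol2, 1.81 for Pkp3 and 1.12 for Postn. Ectoderm sample 2 was low at 2.14 for Epcam (others 3.36 to 3.98) and high at 2.5 for Twist2 (others -1.02 to 0.3) and 0.48 for Klf1. Emcn was 3.96 in ectoderm sample 1 (others -0.57 to -0.06), and Pitx1 was 3.25 in ectoderm sample 6 (others 4.94 to 5.35).

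In the mandibular arch, sample 6 stood apart at 4.22 for Hand2 (others 1.84 to 2.22) and 0.07 for Cldn9. Sample 5 stood apart at 0.93 for Lhx8 (others 3.76 to 4.47) and 1.76 for Jup, and sample 4 at 1.49 for Lyz2, 0.02 for Pax6 and -0.58 for Zfand1. In the maxillary arch, sample 4 stood apart at -2.5 for Fabp7 (others 1.34 to 2.69) and -0.04 for Jup (others 1.44 to 1.99). Maxillary sample 1 was -2.89 for Spint2, sample 2 was 0.98 for Cldn9 and sample 3 was 0.09 for Khdrbs3.

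The difference between ectoderm and maxillary arch changed from E9.5 to E10.5 for 12 of the genes described, by limma's test of the difference itself with Benjamini-Hochberg adjustment. It changed by -5.91 for Pitx1 (adjusted p = 0.00037), -4.75 for Rab25 (0.031), -3.38 for Aldh1a3 (0.00037), -3.01 for Cldn3 (0.04) and -2.44 for Six3 (0.047). It changed by 3.97 for Pcolce (0.00059), 2.91 for Dusp6 (0.031), 2.84 for Icam2 (0.015), 2.51 for Eng (0.00037), 2.49 for Esam (0.03), 1.85 for Sox9 (0.044) and 1.71 for Col3a1 (0.018). Epcam was near the E10.5 ectoderm in 4 of the 5 samples labelled E10.5 maxillary arch. Cldn7 was near it in samples 1 to 3 only, with 1.05 and 0.42 in samples 4 and 5. The part of such epithelial markers in these changes was not tested. The region of the ectoderm cannot be told apart from the stage.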

How the results depend on the processing

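The E9.5 count of 7373 became 3907 with the compared groups alone, 1038 with the 5th and 313 with the 95th percentile as covariate, 2633 against the maxillary arch alone, and 45 against maxillary samples 4 and 5 alone. These are totals under each setting and not subsets of the 7373. Leaving out 1 sample gave 4161 to 8674. The E10.5 count of 2 became 5 after quantile normalization, 64 with array weights, 69 without wide arrays and 0 with the compared groups alone, and 7 to 35 without 1 sample. The stage count of 42 became 18 after quantile normalization, 167 with array weights, 4 with the compared groups alone, 112 without wide arrays, and 90 and 8 with the 5th and 95th percentile, and 7 to 131 without 1 sample. With the replicate block, which was fitted to the compared groups alone, 704, 0 and 2 genes were called. Whether the labels' numbers pair the samples is not known. Of 14 same-numbered E9.5 pairs, 5 had deviations correlated above 0.1 (median -0.062), and 0 of 4 at E10.5. Of 81 E9.5 pairs with different numbers, 28 did (median 0.026). These deviations also carry differences in the shape of the arrays, so the check cannot decide whether samples share an embryo. Of 94 genes described, the direction turned for Des (0.07), Msc (0.06), Postn (0.15) and Rarg (0.07) against maxillary samples 4 and 5 alone, for Hand2 (0.13) against the maxillary arch alone and for Smo (0.08) with the 95th percentile. Of 91 called, 88 were kept without each sample. Of the 94, 30 lost their call with the replicate block, 28 with the 95th percentile and 75 against maxillary samples 4 and 5 alone. The cause of these shifts was not tested. The labels do not say which samples share an embryo, and p-values over samples that do are too small.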

Other observations

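One E9.5 sample, whose title and other labels name ectoderm and mandibular arch, held high values of both kinds. It read 2.13 for Epcam, 3.89 for Cldn6 and 3.66 for Cldn7, and 4.36 for Barx1, 2.14 for Prrx1 and 2.81 for Pcolce. For Epcam this is below the lowest ectoderm sample (2.14) and above every arch sample, and for Barx1 it lies within the range of the arches. Aldh1a3 was -0.11 in it, as low as in the arches.

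Among the other E9.5 tissues, Epcam averaged 2.34 ± 2.5 (SD, n = 6) in the otic vesicle, where samples ran from -1.46 to 4.16, -0.76 ± 0.6 (SD, n = 6) in the cranial mesenchyme and -0.6 ± 0.69 (SD, n = 5) in the neuroepithelium. Aldh1a3 did not exceed 0.54 in any sample of these 3 tissues. Pcolce averaged 2.65 ± 0.52 (SD, n = 6) in the cranial mesenchyme, and Icam2 averaged 2.38 ± 1.28 there.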
